A study of Rattus norvegicus with 12 samples.

Results

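The genes described here are the splicing factors of the general splicing machinery and of heart muscle. They were chosen by name from the deposited table as the protein-coding genes of the Srsf, Hnrnp, Sf3a and Sf3b families, together with Rbfox1, Rbfox2, Celf1, Celf2, Mbnl1, Mbnl2, Mbnl3, Rbm20, Rbm24 and Qk. The rule found 50 entries among the 32545 genes of the table, of which 11 were SR proteins, 20 were hnRNP proteins, 9 were subunits of SF3a or SF3b and 10 were heart and muscle regulators. Of these 50 entries, 48 passed the filter on low values and were tested.

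RNA was sequenced from the left ventricular (LV) and right ventricular (RV) free walls of Sprague–Dawley rats. The pups had undergone surgery on postnatal day 1 and the tissue was taken on postnatal day 7. In the volume overload (VO) groups a fistula was made between the abdominal aorta and the inferior vena cava, and the sham groups underwent the operation without it. Each of the 4 groups, VO LV, VO RV, sham LV and sham RV, held 3 libraries. All pups were of 1 strain with no genetic change, and the fistula loads both ventricles at once, so no group has an overload of 1 ventricle alone. The study refers to its samples as individuals, but the sources used here name no animal for a library, and p values measure only the spread between these libraries.

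Introns are removed by the spliceosome, in which the SF3a and SF3b complexes belong to the U2 particle that recognises the branch point. SR proteins, which carry a domain rich in arginine and serine, mostly bind exons and favour their inclusion, whereas many hnRNP proteins bind the same transcripts and can repress it. The RBFOX, CELF, MBNL, RBM20, RBM24 and QKI proteins bind short motifs near alternative exons of muscle transcripts, and in the rodent heart the balance between CELF and MBNL proteins changes after birth. RBM20 is required for the normal splicing of titin and of several calcium-handling genes. The values below are gene totals, which do not show which exons were used, and in RNA from whole tissue fewer cells of a type and less RNA per cell cannot be told apart.

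The unit of all levels below is the FPKM of the authors, which is the number of fragments on a gene scaled to gene length and a measure of library size. The libraries held 14121713 to 16871371 reads assigned to genes. A gene was called when its adjusted p was under 0.05 and its fold change over 1.3 in a limma model of log2(FPKM + 0.5), with Benjamini-Hochberg adjustment across the 13910 genes whose FPKM averaged 0.5 or more. Fold changes below are on that log2 scale, which understates the change of low genes. Cardiomyocyte markers summed to between 14232 and 22158 FPKM in every library, and neuron markers to between 1.40 and 3.31 FPKM. These sums go with heart tissue, but they do not tell ventricle from atrium. Sham LV replicate 2 stood apart in many of the genes described here, with the highest level of 19 of the 48 tested and the lowest level of 12, and it also had the lowest share of mitochondrial reads (14.4% against up to 26.2%). VO RV replicate 2 had the highest sum of atrial markers (4559 FPKM against as little as 212 FPKM). Sham RV replicate 1 also stood apart in the atrial genes Sln (97.7 FPKM) and Bmp10 (12.6 FPKM), which were at 388 and 72.4 FPKM in VO RV replicate 2 and at most 0.678 and 0.152 FPKM in the other 10 libraries. Sham RV replicate 1 was the highest sham RV library for Celf1, Celf2, Rbm20, Rbfox2 and Mbnl1, and the part of atrial tissue in these values was not tested. Sham LV replicate 2 and VO RV replicate 2 received the lowest quality weights when limma estimated them, 0.446 and 0.451.

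The levels of these genes covered a wide range. Hnrnpa2b1, an abundant nuclear RNA-binding protein, had the highest mean (450.4 FPKM over 12 libraries), followed by Hnrnpa0 (234 FPKM) and the Hnrnpa3 entry on chromosome 3 (195 FPKM). The highest SR protein was Srsf5 (162 FPKM), the highest SF3 subunit was Sf3b5 (95.5 FPKM) and the highest regulator was Rbm24 (80.8 FPKM). The lowest tested genes of these families were Hnrnph3 (3.61 FPKM), Srsf9 (25.1 FPKM), Sf3a1 (12.6 FPKM) and Mbnl3 (0.57 FPKM). The spread over libraries also varied. In 21 of the 48 the highest library was less than 1.5 times the lowest, while in 14 it was more than 2 times the lowest. Srsf12 (mean 0.26 FPKM, 4 to 18 reads per library) and the second entry named Hnrnpab (mean 0.02 FPKM, 0 to 3 reads) were too low to be tested.

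The median fold changes differed in sign between the families. The 10 heart and muscle regulators were all below 0 in the log2 fold change of sham LV over sham RV (median −0.43), all above 0 in VO over sham in the LV (median 0.42) and all below 0 in VO over sham in the RV (median −0.29). The SR proteins had the opposite signs in the LV, with 9 of 10 tested genes higher in sham LV than in sham RV (median 0.30) and 0 of 10 above 0 in VO over sham in the LV (median −0.34). In the RV, 8 of 10 SR proteins were above 0 after VO, with a median of 0.09. Single libraries carried part of these medians. Without VO RV replicate 3 the median of the SR proteins in the RV was 0.03 and that of the regulators −0.17, without sham RV replicate 1 or VO RV replicate 2 that of the SR proteins in the RV was 0.04 or 0.16, and without sham LV replicate 2 that of the SR proteins between the sham groups was 0.19. The medians of the 19 tested hnRNP proteins and the 9 SF3 subunits stayed between −0.05 and 0.05 in the comparisons of sham LV with sham RV, of VO with sham in each ventricle and of VO LV with VO RV. The medians of all tested genes lay between −0.02 and 0.01 in the same comparisons. Most single genes behind these medians did not pass the test, as the counts below show, and the comparisons of sham LV with sham RV and of VO with sham in the LV share the sham LV libraries, so their opposite signs are not independent.

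**Figure D1:**
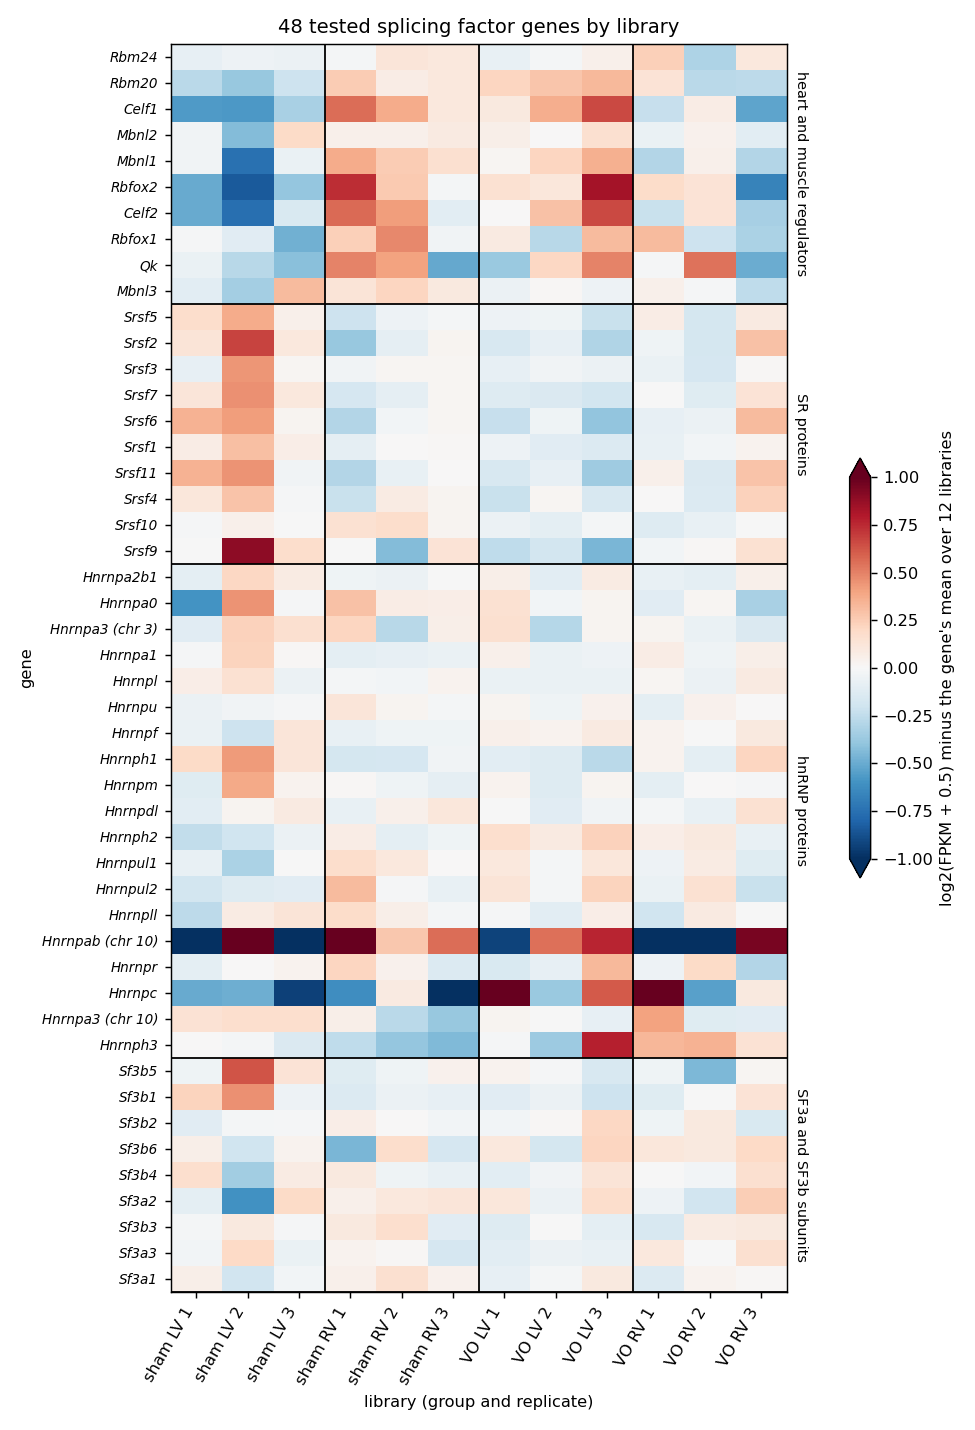
Each row is 1 of the 48 tested genes and each column 1 of the 12 libraries, ordered by group. Colours show log2(FPKM + 0.5) minus the mean of the gene over the 12 libraries, and colours are cut off at −1 and 1. The regulators are mostly blue in sham LV and red in sham RV and VO LV, the SR proteins are the reverse with the deepest colours in sham LV replicate 2, and Hnrnpab and Hnrnpc have deep colours in both directions.

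The first comparison asked which of these genes differ between the ventricles at rest. Of the 48 tested genes, 1 was called between sham LV and sham RV, namely Celf1, where 3.86% of all tested genes were called. At an unadjusted p under 0.05 and the same fold threshold there were 6 genes, 1 higher and 5 lower in the LV, where 17.8% of all tested genes passed. Groups that did not overlap were seen in 18 of the 48 genes, 10 higher and 8 lower in the LV, beside 32.2% of all tested genes. The first 2 counts are smaller shares than among all genes and the last a slightly larger one, so none sets these genes apart.

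The next comparisons asked how each ventricle responds to VO. In the LV, limma called 0 of the 48 genes, where 0.0935% of all tested genes were called. At an unadjusted p under 0.05 there were 12 genes, 6 higher and 6 lower after VO, beside 15.7% of all tested genes, and voom on the recovered reads called 2 (Rbm20 and Celf1) and 2.81% of all tested genes. Groups that did not overlap were seen in 20 genes, 8 higher and 12 lower after VO, beside 32.4% of all tested genes. In the RV, limma called 0 genes and 0.0% of all tested genes, 3 passed at an unadjusted p under 0.05 beside 4.91% of all tested genes, and voom called 0. Groups did not overlap in 10 genes of the RV, 3 higher and 7 lower after VO, beside 12.5% of all tested genes.

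After VO the ventricles were compared directly. Between VO LV and VO RV limma called 0 of the 48 genes beside 0.00719% of all tested genes, 2 passed at an unadjusted p under 0.05 beside 7.4% of all tested genes, and voom called 0. Groups did not overlap in 7 genes, 2 higher and 5 lower in VO LV, beside 16.1% of all tested genes. The difference between the response of the LV and the response of the RV was called for 3 genes, Celf1 and Rbm20 with a positive and Hnrnph1 with a negative difference, beside 4.19% of all tested genes. At an unadjusted p under 0.05 there were 13 genes with such a difference, beside 23.1% of all tested genes. Voom called 6 genes for this difference, the same 3 with Mbnl1, Rbfox2 and Celf2, and 5.78% of all tested genes.

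Celf1 encodes an RNA-binding protein that binds GU-rich elements, is abundant in the fetal heart and controls alternative exons in muscle. It was the one gene called in 2 comparisons.

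The level of Celf1 in sham LV was 15.7, 15.6 and 18.7 FPKM in replicates 1 to 3. In sham RV it was 35.0, 30.7 and 25.3 FPKM. The sham groups did not overlap, and the ratio of the means, sham LV to sham RV, was 0.550. In VO LV the level was 25.2, 30.5 and 37.5 FPKM, above all sham LV libraries, and the ratio of VO LV to sham LV was 1.86. In VO RV it was 20, 24.8 and 16.2 FPKM, below all sham RV libraries by a small margin, and the ratio of VO RV to sham RV was 0.670. Celf1 thus had its highest libraries in sham RV and VO LV and its lowest in sham LV and VO RV.

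By limma, the log2 fold change of Celf1 from sham RV to sham LV was −0.84 ± 0.18 (SE, adjusted p = 0.0373). VO over sham gave 0.86 ± 0.18 for the LV (adjusted p = 0.0534) and −0.57 ± 0.18 for the RV (adjusted p = 0.542), neither of which passed. The difference of the responses was 1.44 ± 0.25 (adjusted p = 0.0249). An exact two-sided permutation test of 3 libraries against 3 cannot go below 0.10, and gave 0.1 for Celf1 both between the sham groups and for VO in the LV. The call between the sham groups was lost without any 1 of sham LV replicates 1 and 2, sham RV replicates 1 and 2 and VO LV replicate 2, and the fold change lay between −0.96 and −0.73 over all 12 single libraries left out, with −0.73 (adjusted p = 0.144) without sham RV replicate 1. With no filter on low values, where 21603 genes were adjusted over, neither call of Celf1 passed (adjusted p = 0.0703 and 0.0540), nor did the difference for Rbm20 (0.0540) and Hnrnph1 (0.0798). The call of the difference was lost without any 1 of these or VO LV replicate 3, with a difference between 1.29 and 1.59.

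Celf2, a close relative of Celf1, had lower levels in the same order. Sham LV was at 6.79, 5.61 and 8.78 FPKM, and sham RV at 14.8, 13.3 and 9.09 FPKM, so that no sham LV library reached the lowest of sham RV. In VO LV it was at 9.84, 12.1 and 15.8 FPKM and in VO RV at 8.33, 10.9 and 7.70 FPKM. VO LV was above sham LV in every library, and the VO groups overlapped. The log2 fold changes were −0.76 ± 0.22 between the sham groups, 0.79 ± 0.22 for VO in the LV and −0.43 ± 0.22 for VO in the RV, with adjusted p of 0.0717, 0.0847 and 0.622 by limma. The difference of the responses was 1.22 ± 0.32 (adjusted p = 0.0532), and none of these passed.

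Rbm20 is the regulator that represses exons of titin and of other sarcomere and calcium-handling genes. Sham LV held 24.0, 22.2 and 25.2 FPKM, and sham RV held 34.8, 30.7 and 31.3 FPKM. It was 33.8, 35.4 and 36.6 FPKM in VO LV and 32.0, 24.0 and 24.1 FPKM in VO RV. Sham LV lay below sham RV and below VO LV without overlap, and VO LV lay above VO RV without overlap. VO RV replicate 1 lay within the range of sham RV, so these groups overlapped. The means were 23.8 ± 1.49 FPKM in sham LV and 35.3 ± 1.42 FPKM in VO LV (SD, n = 3).

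For Rbm20 the log2 fold change of VO over sham was 0.56 ± 0.11 in the LV (adjusted p = 0.0517) against −0.28 ± 0.11 in the RV (adjusted p = 0.574), and it was −0.43 ± 0.11 between the sham groups (adjusted p = 0.0531), all just or far outside the threshold. The difference of the responses was 0.84 ± 0.16 (adjusted p = 0.0291) and was called. With the trend of each library with gene length removed, this difference was 0.68 ± 0.17 (adjusted p = 0.0537) and no longer passed, whereas that of Celf1 was 1.44 ± 0.26 (adjusted p = 0.0309). The slope of that trend was negative in all 3 sham LV libraries, from −0.06 to −0.03 log2 per doubling of gene length, and between −0.001 and 0.05 in the sham RV and VO LV libraries, and its part in the result was not tested beyond this fit. Rbm20 is a long gene model (6682 bases against 1998 bases for Celf1). Its call was lost without any 1 of sham LV replicates 1 and 2, sham RV replicates 1 and 2, VO LV replicates 2 and 3 and VO RV replicate 3, with a difference between 0.77 and 0.97 over all single libraries left out.

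Rbfox2, which binds UGCAUG elements beside alternative exons, had the largest fold change of the regulators in the LV. Sham LV was at 7.84, 6.11 and 8.55 FPKM, and sham RV at 19.3, 13.7 and 11.2 FPKM. In VO LV it was at 12.7, 12.3 and 20.6 FPKM and in VO RV at 12.9, 12.5 and 6.93 FPKM. Sham LV was below sham RV and VO LV in every library, and VO RV replicates 1 and 2 were within the range of sham RV. The ratio of VO LV to sham LV was 2.03, with a log2 fold change of 0.95 ± 0.27 (adjusted p = 0.0872). The difference of the responses was 1.39 ± 0.39 (adjusted p = 0.0636) and did not pass. Its relative Rbfox1, at 10.1 FPKM on average, overlapped between the groups in every comparison, with log2 fold changes of −0.43 ± 0.21 between the sham groups and 0.25 ± 0.21 in the LV.

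Mbnl1, which promotes the splicing pattern of mature muscle, was at 12.4, 7.39 and 12.1 FPKM in the sham LV libraries and at 16.6, 15.3 and 14.2 FPKM in those of the sham RV. It was at 12.9, 14.9 and 16.4 FPKM in VO LV and 10.3, 13.2 and 10.3 FPKM in VO RV. VO LV was above sham LV and VO RV was below sham RV without overlap, and the VO groups overlapped. The log2 fold changes of VO over sham were 0.48 ± 0.18 (LV, adjusted p = 0.149) and −0.44 ± 0.18 (RV, adjusted p = 0.579), with a difference of 0.92 ± 0.26 (adjusted p = 0.0636). Without sham LV replicate 2, where Mbnl1 was lowest, the fold change in the LV was the lowest of all single libraries left out, 0.25.

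**Figure D2:**
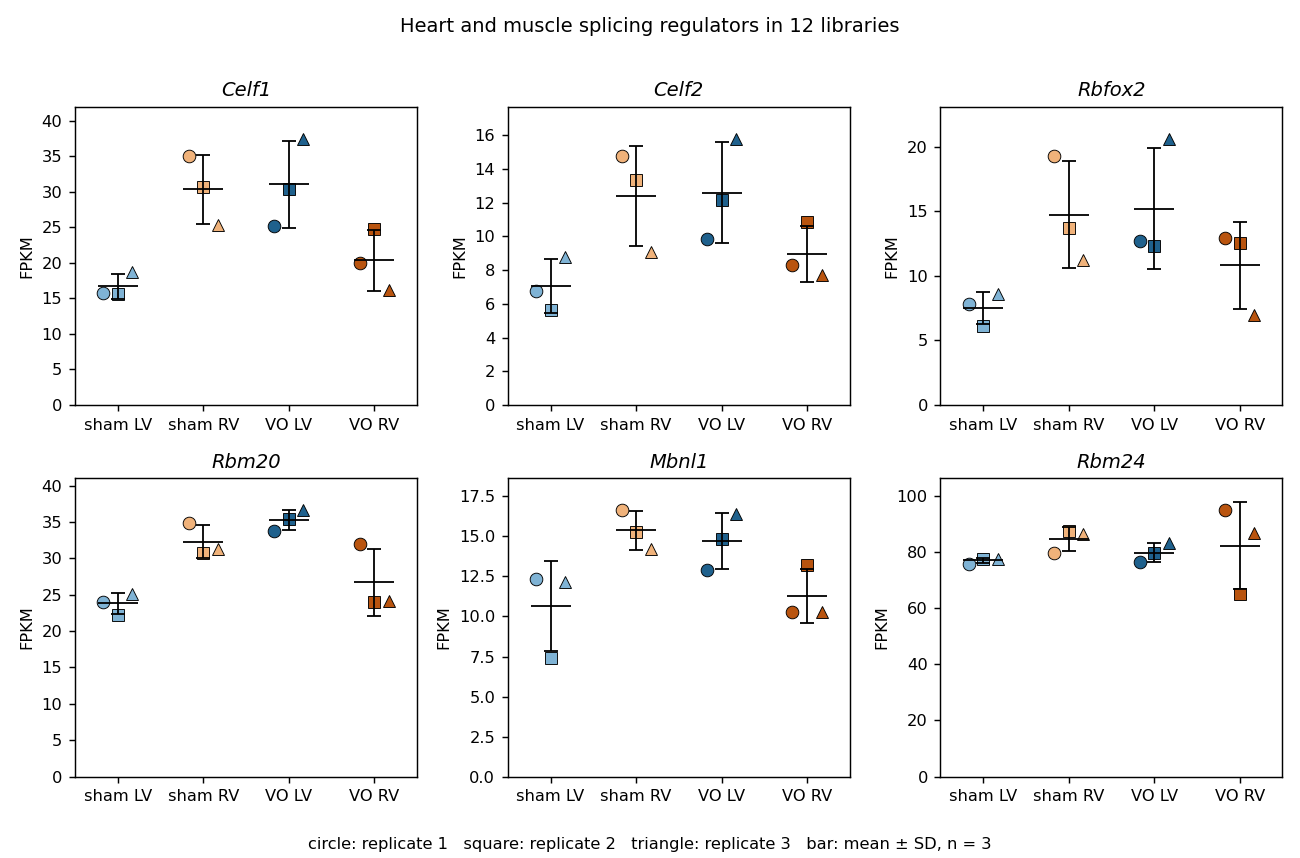
FPKM of 6 heart and muscle regulators in the 4 groups, with 1 point per library (circle, square and triangle for replicates 1, 2 and 3) and a bar for the mean ± SD (n = 3). Sham LV lies below sham RV in all 6 panels and below VO LV in all panels but that of Rbm24, whose sham LV values lie between 75.8 and 77.5 FPKM.

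The remaining regulators differed less. Mbnl2 was the highest of the MBNL genes (23.5 FPKM on average), and after VO its log2 fold changes were 0.17 ± 0.13 (LV) and −0.10 ± 0.13 (RV). Mbnl3 was near the filter at 11 to 23 reads per library and −0.22 ± 0.22 in the RV. Rbm24, which stabilises and splices sarcomere transcripts, averaged 76.9 ± 0.951 FPKM in the sham LV and 84.5 ± 4.33 FPKM in the sham RV (SD, n = 3), and these groups did not overlap, although the log2 fold change was only −0.13 ± 0.12 (adjusted p = 0.495). In VO RV it ranged from 64.9 to 94.8 FPKM, the widest range of its 4 groups, with the lowest value in replicate 2. Qk, whose protein binds ACUAAY-like elements, ranged from 4.84 to 10.6 FPKM, overlapped in every comparison and had a log2 fold change of 0.37 ± 0.32 in the LV.

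Several cardiomyocyte markers had fold changes of the same sign as the regulators. Of the 7 cardiomyocyte markers tested, 5 were above 0 in VO over sham in the LV (median 0.40) and 5 were below 0 in the RV (median −0.20), and 5 were below 0 between the sham groups (median −0.14). All 7 were above 0 in VO LV over VO RV (median 0.34). For the difference of the responses 5 were above 0 (median 0.48), and 3 were called with a positive difference, beside 4.19% of all tested genes. Ryr2, which is also among the transcripts that RBM20 processes, was at −0.94 between the sham groups (adjusted p = 0.0356), and Myh6 at −0.50 (adjusted p = 0.0538). Tnni3 and Tnnt2 were above 0 there, at 0.57 and 0.31 (adjusted p = 0.105 and 0.273). Without sham RV replicate 1 limma called 0 of all tested genes between the sham groups and 0 for the difference. The summed cardiomyocyte level was between 19848 and 22158 FPKM in VO LV and between 18405 and 19945 FPKM in sham LV. It overlapped between sham LV and sham RV, where it was 17073 to 20050 FPKM, and in VO RV it was 14232 to 19365 FPKM. The part of cell composition in the fold changes of the regulators was not tested. No marker of any list was at 0 in every library.

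The summed level of Y-linked genes was 56.1 to 64.9 FPKM in sham LV replicates 1 and 2, sham RV replicates 1 and 2 and VO RV replicate 3, and at most 0.373 FPKM in the other 7 libraries, all 3 of VO LV among them. The Y-linked level therefore moves with the contrast of VO LV and sham LV. In part it also moves with that of VO RV and sham RV and that of VO LV and VO RV. With the Y-linked level as a covariate, the difference of the responses was 1.40 ± 0.27 for Celf1 (adjusted p = 0.0458) and 0.81 ± 0.16 for Rbm20 (adjusted p = 0.0488), both still called, and −0.56 ± 0.15 for Hnrnph1 (adjusted p = 0.0803), which was no longer called. In the same fit, the response of the LV was 0.79 ± 0.21 for Celf1 and 0.50 ± 0.13 for Rbm20, both with an adjusted p of 0.274.

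Hnrnph1, an hnRNP protein that binds runs of G, was the only member called with a negative difference. For Hnrnph1, and for Srsf7 as an SR protein below, the 300 bases around the annotated start of the gene (250 before and 50 after it) are shown from RefSeq (build GRCr8). Capitals mark the GC box GGGCGG, the CCAAT box CCAAT and the TATA box TATAAA on either strand. The Hnrnph1 window on the plus strand at chr10:35194383-35194682 has 55.7% G or C, 28 CG dinucleotides and 1 GC box, in capitals.
Hnrnph1: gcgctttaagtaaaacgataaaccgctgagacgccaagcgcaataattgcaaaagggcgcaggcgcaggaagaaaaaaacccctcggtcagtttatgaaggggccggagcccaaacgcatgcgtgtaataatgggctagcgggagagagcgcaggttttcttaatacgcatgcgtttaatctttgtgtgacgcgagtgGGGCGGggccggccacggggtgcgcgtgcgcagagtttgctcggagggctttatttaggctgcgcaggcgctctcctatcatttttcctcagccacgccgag

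Hnrnph1 was at 91.8, 107.5 and 87.1 FPKM in the sham LV libraries and at 70.8, 71.4 and 78.1 FPKM in those of the sham RV. In VO LV it was 74.4, 73.2 and 66.4 FPKM and in VO RV 82.1, 74.7 and 93.1 FPKM. Sham LV was above sham RV and above VO LV in every library, and VO LV was below VO RV in every library, by as little as 74.4 against 74.7 FPKM. The log2 fold changes were 0.37 ± 0.11 between the sham groups (adjusted p = 0.0668), −0.41 ± 0.11 for VO in the LV (adjusted p = 0.0703) and 0.18 ± 0.11 for VO in the RV (adjusted p = 0.642). The difference of the responses was −0.59 ± 0.15 (adjusted p = 0.0498), which lies at the threshold, and it passed in only 2 of the 12 fits that left out 1 library, without sham LV replicate 3 or without VO RV replicate 2. Of its paralogs, Hnrnph2, on the X chromosome, was at 44.1 ± 3.03 FPKM in sham LV and 55.6 ± 2.76 FPKM in VO LV (SD, n = 3), without overlap, with a log2 fold change of 0.33 ± 0.08 (adjusted p = 0.0703). Hnrnph3 was at 2.62 ± 0.208 FPKM in sham RV and 4.34 ± 0.373 FPKM in VO RV, without overlap, with 0.63 ± 0.23 (adjusted p = 0.549). Like Hnrnph1, it lay higher in sham LV than in sham RV without overlap (ratio of means 1.28) and had a negative difference of the responses (−0.45 ± 0.32), which did not pass, but its response in the LV was 0.19 ± 0.23. Hnrnpf, of the same subfamily, was at 0.12 ± 0.09 in the LV and 0.10 ± 0.09 in the RV.

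All 10 tested SR proteins were below 0 after VO in the LV. None was called by limma in any comparison, and at an unadjusted p under 0.05 there were 5 lower after VO in the LV, 1 higher in the sham LV than the sham RV, and 6 with a negative difference of the responses, where 15.7%, 17.8% and 23.1% of all tested genes passed in either direction. The groups of VO LV and sham LV did not overlap for 8 of the 10 tested genes, all lower after VO, beside 32.4% of all tested genes in either direction. For Srsf7, a zinc-knuckle SR protein that also acts in mRNA export, the window is shown as the SR protein with the smallest adjusted p in the LV. It lies on the plus strand at chr6:20563802-20564101 and has 61.7% G or C, 26 CG dinucleotides and 4 GC boxes.
Srsf7: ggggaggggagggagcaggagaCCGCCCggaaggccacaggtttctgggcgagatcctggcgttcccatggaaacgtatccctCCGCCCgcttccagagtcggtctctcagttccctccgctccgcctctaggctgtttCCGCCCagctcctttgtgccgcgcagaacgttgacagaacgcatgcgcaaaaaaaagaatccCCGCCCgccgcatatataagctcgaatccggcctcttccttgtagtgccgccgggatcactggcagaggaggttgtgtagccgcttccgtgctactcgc

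Srsf7 was at 71.9, 90.7 and 70.9 FPKM in sham LV and at 60.4, 59.5 and 57.9 FPKM in VO LV. The RV libraries held 58.5, 61.9 and 67.0 FPKM after sham surgery and 65.6, 60.7 and 72.7 FPKM after VO. All VO LV libraries were below all sham LV libraries and below all VO RV libraries, and the RV groups overlapped. VO over sham was −0.38 ± 0.11 on the log2 scale for the LV (adjusted p = 0.0834) and 0.09 ± 0.11 for the RV (adjusted p = 0.834), with a difference of −0.46 ± 0.15 (adjusted p = 0.0931).

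Srsf6 was at 77.5, 81.5 and 62.1 FPKM in sham LV and at 51.9, 58.9 and 46.2 FPKM in VO LV, without overlap. The log2 fold change was −0.48 ± 0.15 (adjusted p = 0.0953), with 0.16 ± 0.15 in the RV. Srsf2, one of the first SR proteins described, was at 166.5, 243.5 and 163.6 FPKM in sham LV and at 136.4, 143.7 and 123.7 FPKM in VO LV. Both genes were lower in every VO LV library than in any sham LV library, and sham LV replicate 2 was the highest. Srsf9 ranged from 17.6 to 45.7 FPKM, the largest ratio of highest to lowest library among the tested SR proteins, with −0.65 ± 0.21 in the LV (adjusted p = 0.110). Srsf11, a U2-associated SR-related protein, was at −0.45 ± 0.15 and Srsf5 at −0.30 ± 0.11 in the LV, with adjusted p of 0.113 and 0.140.

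The other SR proteins had smaller fold changes in the LV. Srsf1, the founding member of the family, was at −0.25 ± 0.08 (adjusted p = 0.116), with 53.6 ± 5.11 FPKM in sham LV and 44.9 ± 1.44 FPKM in VO LV (SD, n = 3). Srsf4 and Srsf3 were at −0.25 ± 0.12 and −0.19 ± 0.12, and their groups overlapped. Srsf10, which represses exons when dephosphorylated, had the smallest fold change in the LV (−0.07 ± 0.07), and in the RV it was lower after VO without overlap (−0.18 ± 0.07, adjusted p = 0.560). Of the 10 tested SR proteins, 9 had their highest value in sham LV replicate 2 and 6 their lowest in VO LV replicate 3. Without sham LV replicate 2 all 10 still had negative fold changes in the LV, and the median moved from −0.34 to −0.24. Most endothelial, red blood cell, macrophage and mural markers had fold changes of the same signs as the SR proteins. The summed level of 6 endothelial markers was 371 to 398 FPKM in sham LV, 278 to 299 FPKM in sham RV and 309 to 345 FPKM in VO LV, and that of 4 red blood cell markers was 9620 to 13178, 4896 to 8161 and 6460 to 9881 FPKM, highest in sham LV replicate 2. In VO over sham of the LV, 0 of 6 and 0 of 4 of these markers were above 0, and 1 of 7 macrophage and 1 of 7 mural markers were. Between the sham groups 6 of 7 macrophage and 6 of 7 mural markers were above 0, with summed levels of 42.2 to 46.6 and 529 to 693 FPKM in sham LV against 35.5 to 42.5 and 459 to 503 FPKM in sham RV. Of the 7 fibroblast markers 0 were above 0 between the sham groups, 1 in VO over sham of the LV and 6 in that of the RV, and of the 5 epicardial markers 1, 0 and 4 were. The fibroblast sum was 4692 FPKM in VO RV replicate 2 and 1974 to 3496 FPKM elsewhere. The part of these cell types in the values of the SR proteins was not tested.

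**Figure D3:**
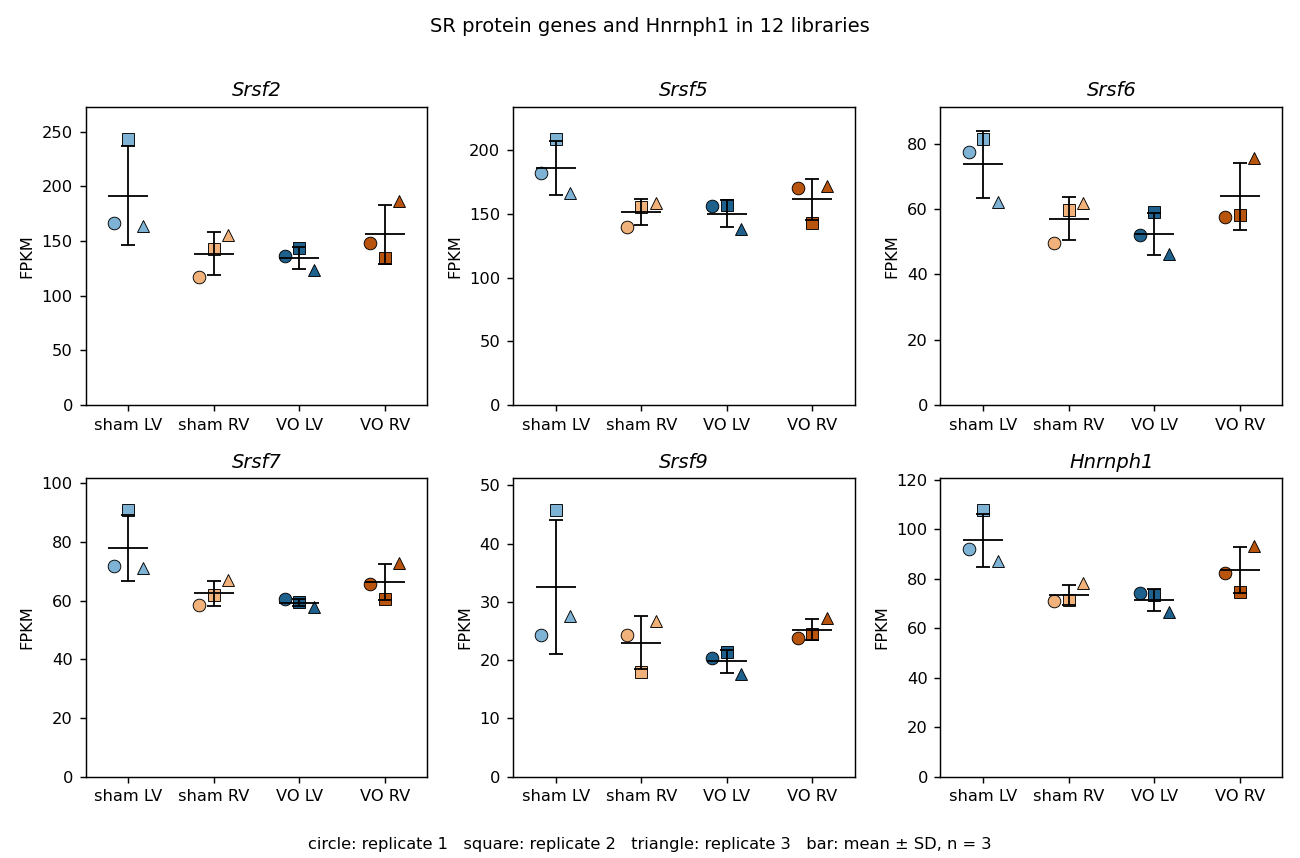
FPKM of 5 SR protein genes and Hnrnph1 in the 4 groups, with 1 point per library (circle, square and triangle for replicates 1, 2 and 3) and a bar for the mean ± SD (n = 3). VO LV lies below sham LV in every panel without overlap, and the square of sham LV is the highest point of all 6 panels.

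Summed over the 11 SR entries, the level was 779.5, 981.5 and 737.3 FPKM in sham LV against 651.7, 674.8 and 606.3 FPKM in VO LV. The sums of sham RV (619.6 to 717.0 FPKM) and VO RV (646.1 to 795.8 FPKM) overlapped. The sums of the regulators were 182.4, 166.8 and 190.5 FPKM in sham LV against 211.4, 224.9 and 259.5 FPKM in VO LV, and lay between 217.6 and 246.7 FPKM in sham RV and between 186.8 and 220.7 FPKM in VO RV. The hnRNP proteins had the largest sums, and these overlapped between sham LV (1682 to 2119 FPKM) and VO LV (1734 to 1946 FPKM).

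Beyond Hnrnph1, the hnRNP proteins were mostly flat. Hnrnpa2b1 had log2 fold changes of 0.10 ± 0.10 between the sham groups and −0.05 ± 0.10 in the LV, Hnrnpu of 0.05 ± 0.07 in the LV and Hnrnpdl of −0.05 ± 0.09 in the LV. Hnrnpl, a CA-repeat binding protein, was at 145.6, 145.4 and 145.7 FPKM in VO LV and at 146.7 to 170.1 FPKM in sham LV, without overlap, and its log2 fold change was −0.12 ± 0.08. Hnrnpul1 and Hnrnpul2, which are related to Hnrnpu, lay lower in the sham LV than the sham RV without overlap, at −0.23 ± 0.10 and −0.22 ± 0.12. Hnrnpa1 lay higher in the sham LV without overlap, at 0.15 ± 0.08. None of these passed by limma. For Hnrnpa0, Hnrnpa3 on chromosome 3, Hnrnpm, Hnrnpll and Hnrnpr the LV groups overlapped, with log2 fold changes between −0.12 and 0.11.

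A pair of hnRNP genes varied far more than the rest. The tested Hnrnpab entry was at 2.89, 43.1 and 3.87 FPKM in the sham LV and 64.4, 14.6 and 17.9 FPKM in the sham RV. It was at 6.10, 17.9 and 20.7 FPKM in VO LV and 4.30, 3.80 and 23.7 FPKM in VO RV, so that every pair of groups overlapped and the highest library was 22.3 times the lowest. Its fold changes had the largest size of all 48 genes in the RV (−1.72 ± 0.98) and for the difference (2.39 ± 1.39), with adjusted p of 0.64 and 0.30. Hnrnpc, which binds runs of U, was at 4.31, 4.36 and 3.07 FPKM in sham LV and 40.1, 4.79 and 9.97 FPKM in VO LV. These groups did not overlap, but VO LV replicate 2 was only just above sham LV, and the log2 fold change of 1.59 ± 0.63 did not pass (adjusted p = 0.165). In sham RV Hnrnpc was at 3.95, 6.77 and 2.86 FPKM and in VO RV at 14.3, 4.19 and 6.79 FPKM, which overlapped, and its highest library was 14.0 times its lowest.

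**Figure D4:**
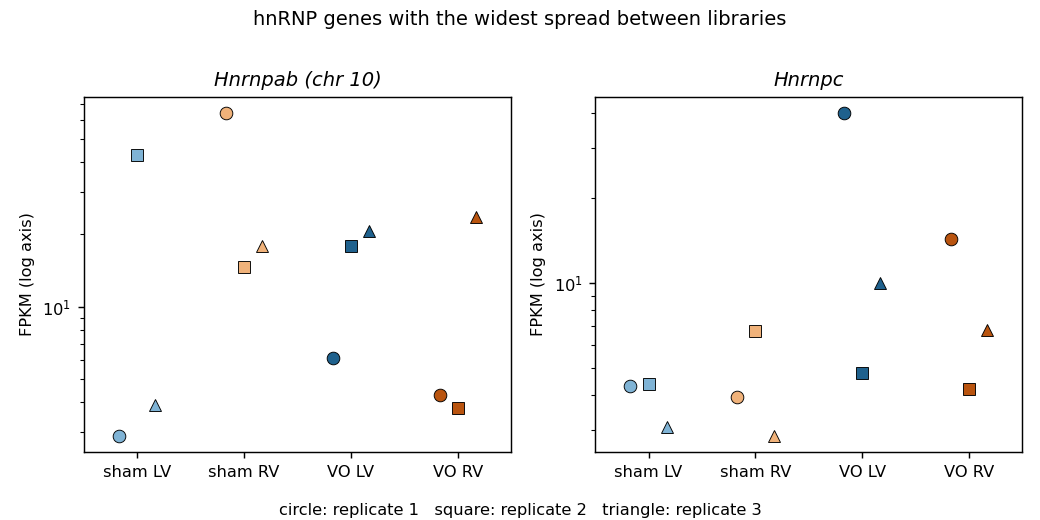
FPKM on a log axis of Hnrnpab and Hnrnpc, the 2 hnRNP genes with the widest spread, in the 4 groups, with 1 point per library (circle, square and triangle for replicates 1, 2 and 3). The groups of Hnrnpab overlap, with its highest library in sham RV (64.4 FPKM) and its lowest in sham LV (2.89 FPKM), and the highest Hnrnpc library is VO LV replicate 1 at 40.1 FPKM.

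Reads of near-identical copies may be split between entries, and the values of these genes are uncertain to that extent. The table has a protein-coding entry described as hnRNP C1/C2-like (LOC100911576, mean 2.51 FPKM) and a processed pseudogene described as A3-like (LOC100911361, mean 1.87 FPKM). The Hnrnpa3 entry on chromosome 10, at 6.12 FPKM, lies inside Car10 on the same strand, and the second Hnrnpab entry lies opposite another gene. Of the 50 entries, 39 overlapped no other annotated gene, Celf1, Rbm20 and Hnrnph1 among them, and 6 were overlapped on the opposite strand, where reads of a library that does not mark strand cannot be told apart. Hnrnpab is overlapped by Phykpl, at 0.6 FPKM. Genes of the hnRNP family that the naming rule does not reach were Raly (174 FPKM on average), Hnrpd (88.1 FPKM) and the K-like LOC100359916 (165 FPKM).

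Of the 9 SF3a and SF3b subunits, 0 were called by limma in any comparison, where at most 4.19% of all tested genes were called, so that 0 of 9 says little. At an unadjusted p under 0.05 there was 1, for the difference of the responses, beside 23.1% of all tested genes. This gene was Sf3b1, the largest SF3b subunit, which contacts the branch point. It was at 76.5, 90.1 and 63.2 FPKM in sham LV and at 60.5, 62.8 and 56.6 FPKM in VO LV. The groups did not overlap, with 62.8 against 63.2 FPKM as the nearest pair, and the log2 fold change was −0.34 ± 0.12 (adjusted p = 0.132), with a difference of −0.43 ± 0.17 (adjusted p = 0.141), which was called without sham LV replicate 3. Sf3b5, a small SF3b subunit, was at −0.28 ± 0.17 in the LV, and its highest value was again in sham LV replicate 2. Sf3a2 was at 0.25 ± 0.18 in the LV, with its lowest value in the same library. Sf3a1, Sf3b2, Sf3b3, Sf3b4, Sf3b6 and Sf3a3 were between −0.11 and 0.11.

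The responses of the LV and RV come from separate libraries, although the sources used here do not say whether an LV and an RV library came from the same animal. By Y-linked level, VO RV replicate 3 (56.1 FPKM) shared no animal with the VO LV libraries (at most 0.351 FPKM). In the sham groups that level matched by number, high in replicates 1 and 2 of both ventricles. All 10 regulators had a positive response in the LV and a negative response in the RV, and 8 of the 10 SR proteins had a negative response in the LV and a positive one in the RV, Srsf3 and Srsf10 being negative in both and Srsf1 at 0.00 in the RV. Among all 13910 tested genes, 6565 had a positive response in the LV and 7035 did in the RV. The sham libraries of each ventricle enter its own response only, but all 4 groups share 1 estimate of the spread. Under 24 alternative fits, between 8 and 10 regulators stayed above 0 in the LV, 0 or 1 in the RV, and 0 of the SR proteins were above 0 in the LV.

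**Figure D5:**
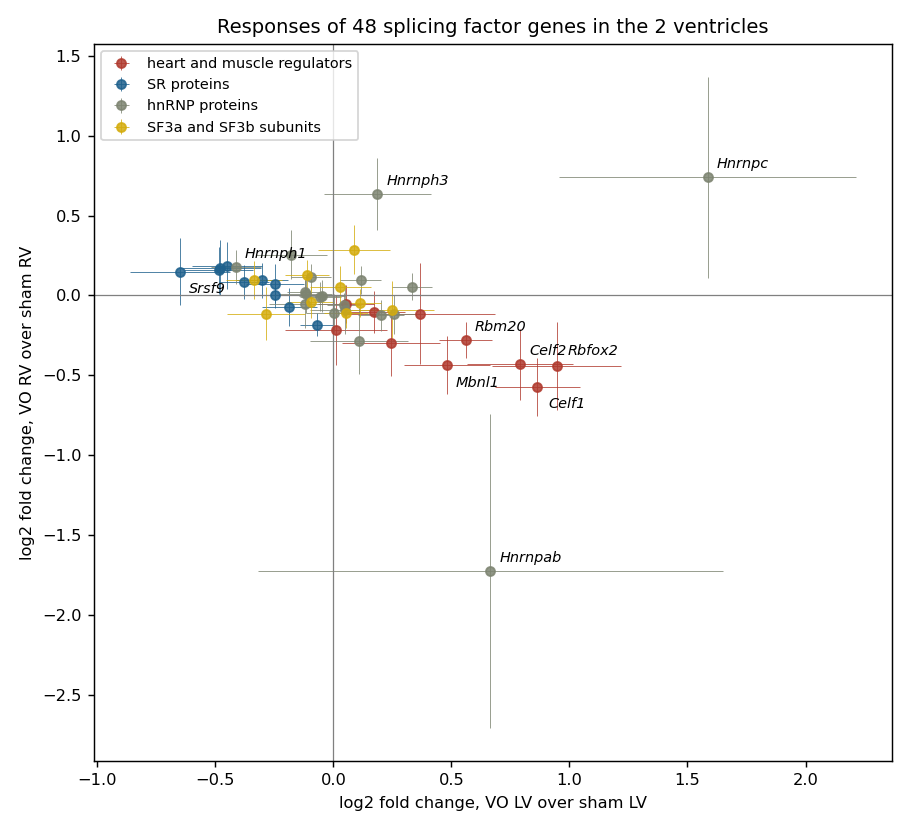
Log2 fold change of VO over sham in the RV (vertical axis) against that in the LV (horizontal axis) for the 48 tested genes, coloured by family, with bars for 1 SE in each direction. The regulators lie at the lower right, Celf1 at 0.86 and −0.57, most SR proteins lie at the upper left, and Hnrnpc and Hnrnpab lie far from the rest with wide bars.

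The 300-base windows of 42 gene symbols could be matched in RefSeq by symbol, covering 44 of the 50 entries. Of the 42 windows, 29 held a GC box, 23 a CCAAT box and 4 a TATA box, where 34.9%, 37.7% and 14.3% of all 27457 windows held them. The median share of G or C was 62.0% in the 42 windows and 52.3% in all windows. An annotated start need not be the start of transcription, and these matches of letters show no site of binding.

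Kinases and phosphatases set down as acting on SR proteins were read from a list of 12, all tested. Whether each of them acts on SR proteins in this tissue was not tested. Between the sham groups 1 was called, lower in the LV, and the difference of the responses was called for 2, beside 3.86% and 4.19% of all tested genes. Hipk2 was at −1.51 between the sham groups (adjusted p = 0.0361) with a difference of 2.20 (adjusted p = 0.0317), and Dyrk1a had a difference of 1.10 (adjusted p = 0.0409). The Clk kinases, which phosphorylate SR proteins in the nucleus, did not pass the test for VO in the LV, with Clk1 at −0.97 (adjusted p = 0.0534) and Clk4 at −0.94 (adjusted p = 0.0540). Of 22 SR-related and RNA-matrix proteins, 16 were below 0 in the LV (median −0.31), and only Srrm4 was called, at −0.86 between the sham groups (adjusted p = 0.0462) and 1.39 for the difference (adjusted p = 0.0329). Srrm4, a regulator of microexons, thus differed in the same directions as Celf1, while the median of its list was 0.25 between the sham groups. The calls of Hipk2, Dyrk1a and Srrm4 were all lost without sham RV replicate 1. In that fit limma called 0 of all tested genes between the sham groups and 0 for the difference.

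Total levels of muscle genes whose transcripts these regulators process were read from 2 lists. Of 19 genes that RBM20 processes, 3 were called between the sham groups, all lower in the LV, and 6 for the difference of the responses, all positive, beside 3.86% and 4.19% of all tested genes, with medians of −0.22 and 0.50. Ryr2, the calcium release channel, had a difference of 1.61 (adjusted p = 0.0249), Pdlim5 of 1.40 (adjusted p = 0.0312) and Fhod3 of 1.22 (adjusted p = 0.0312), and Enah, Lmo7 and Myom1 of 0.99, 0.62 and 0.68. Of 19 tested genes processed by MBNL, CELF, RBFOX, RBM24 or QKI proteins, 4 were called between the sham groups, all lower in the LV, and 5 for the difference, all positive, beside the same shares of all tested genes. These were Insr (1.26), Myocd (1.38), Mef2d (1.11), Mef2a (1.29) and Ank2 (1.68), with adjusted p between 0.0249 and 0.0475. In VO over sham of either ventricle, limma called 0 genes of both lists, while 5 and 12 passed at an unadjusted p under 0.05 in the LV and 4 and 4 in the RV, beside 15.7% and 4.91% of all tested genes. These totals do not show which exons were used. Calls for the difference in both lists were lost without any 1 of sham LV replicates 1 and 2, sham RV replicate 1 and VO LV replicates 2 and 3. In those fits 0 of all tested genes were called. Those between the sham groups were lost without sham RV replicate 1, where again 0 of all tested genes were called. With no filter on low values, 21 of 21603 genes were called for the difference and 8 between the sham groups.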

How the data were processed

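RNA from LV and RV free walls was sequenced in 12 libraries. Reads were filtered, aligned with HISAT2 2.0.5 and counted with featureCounts 1.5.0-p3 by the authors, who deposited FPKM per gene (FPKM are fragments scaled to gene length and library size). DESeq2 1.20.0, StringTie 1.3.3b and GATK 3.7 are also named in the submitters' processing notes, and DESeq2 was not run here. The genome build and the strand setting are not given in the sources used here. Reads were recovered from the steps of FPKM times gene length in each library, and below 200 reads 100% came out whole (tolerance 0.02). The library size implied by these steps was 0.967 to 1.12 times the reads on genes, so the deposited values were not scaled to these reads alone.

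Each library was scaled by its median-ratio size factor (1.002 to 1.007) and values were transformed as log2(FPKM + 0.5). The 13910 genes that averaged 0.5 FPKM or more were fitted in 1 model of the 4 groups with limma 3.58.1 in R 4.3.3 (lmFit, contrasts.fit and eBayes with trend, 8 residual degrees of freedom), with Benjamini-Hochberg adjustment over all of them in each of 5 comparisons. Calls required fold changes over 1.3 at an adjusted p under 0.05. The procedure was tested on simulated data.

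The genes, the other gene lists and the tests were chosen with earlier results of these data known. The genes to name were every gene called, in each comparison the 5 with the largest fold change and the 3 with the smallest adjusted p, all 10 heart and muscle regulators, the highest and the lowest of each family, those not tested, and of each other list up to 5 called genes or the 2 with the smallest p. Further SR, hnRNP and SF3 genes were added with their values in view, as were Myh6, Tnni3, Tnnt2, Sln, Bmp10 and the hnRNP genes outside the rule. Alternatives were other pseudocounts, filters and scalings, voom with TMM factors on the recovered reads, removal of the gene-length trend (lowess, span 0.3), only the groups compared, array weights, a Y-linked covariate, a replicate block and each library left out.

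RefSeq promoter windows were matched by symbol.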

Additional observations from a re-analysis of the deposited data

Results flagged for a closer look

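The response to VO differed between the LV and RV by a test of the difference itself (limma, adjusted over 13910 genes) for Celf1, Rbm20 and Hnrnph1. The log2 difference of LV minus RV was 1.44 for Celf1 (adjusted p = 0.0249), 0.84 for Rbm20 (adjusted p = 0.0291) and −0.59 for Hnrnph1 (adjusted p = 0.0498). For Celf1 and Rbm20 the LV response was positive and the RV response negative, and for Hnrnph1 the reverse. With no filter on low values none of the 3 passed, with adjusted p of 0.0540, 0.0540 and 0.0798.

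For Mbnl1 every VO LV library was above every sham LV library and every VO RV library below every sham RV library, with a log2 difference of 0.92. Its test of the difference did not pass (adjusted p = 0.0636).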

How the results depend on the processing

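Of the 48 tested genes, limma as described called 1 between the sham groups, 0 in each ventricle after VO, 0 between VO LV and VO RV and 3 for the difference of the responses. The shares of all tested genes called were 3.86% for the sham groups and 4.19% for the difference. For the sham groups the count was 0 with no filter on low values, 2 with quantile normalization and with voom, and 4 with array weights. In these fits, in that order, 0.037%, 4.58%, 4.99% and 9.5% of all tested genes were called. For VO in the LV the count was 2 with a mean FPKM of at least 1, with voom and with array weights, and 1 (Rbm20) with only the groups compared. The shares of all tested genes were 1.44%, 2.81%, 5.06% and 0.855%. For the difference the count was 0 with no filter, 6 with voom and 1 (Celf1) with the gene-length trend removed, beside 0.0972%, 5.78% and 2.83% of all tested genes. With the replicate block, or the replicate block within treatment, the count was 0 for the sham groups and 0 for the difference, and the block changed no other call. Of all tested genes, 0.0216% and 0.00719% were called there with the replicate block, and 0% in both with the block within treatment. The labels do not say what a replicate number marks, and it was not taken to pair the libraries, since the deviations of same-numbered libraries correlated at −0.22 to 0.12. That range includes pairs of sham with VO. Same-numbered sham LV and sham RV libraries correlated at 0.04 to 0.12, and their Y-linked levels matched by number. VO RV replicate 3 had a high Y-linked level and VO LV replicate 3 did not. Between sham LV and sham RV 4 of 6 libraries correlated best with their own number and between VO LV and VO RV 1 of 6. The cause of the changes in these counts was not tested.

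Over the 12 fits without 1 library, the counts ranged from 0 to 3 for the sham groups, 0 to 4 for VO in the LV, 0 to 1 for VO LV against VO RV and 0 to 6 for the difference, and stayed at 0 in the RV. The shares of all tested genes called were 0% to 6.25% for the sham groups and 0% to 3.98% for VO in the LV. They were 0.00719% to 0.345% for VO LV against VO RV, 0% to 7.21% for the difference and at most 0.00719% in the RV. The count for the difference was 0 without any 1 of VO LV replicates 2 and 3, sham LV replicates 1 and 2 and sham RV replicates 1 and 2. Of all 13910 tested genes, 4 were called without sham RV replicate 2 and 0 without any 1 of the others named. The highest counts were reached without VO RV replicate 3 (4 genes in the LV) and without sham LV replicate 3 (6 genes for the difference). No called value changed sign. With 3 libraries in a group, small differences were not detectable, and genes such as Mbnl3 (11 to 23 reads per library) are limited by depth.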

Other observations

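Further parts of the splicing machinery, read from lists written for this description, had no gene called by limma in any of the 5 comparisons, where at most 4.19% of all tested genes were called. At an unadjusted p under 0.05 and the fold threshold, for VO in the LV, there were 0 of 12 factors of the branch point and 3 prime splice site, 1 of 10 proteins of the U1 and U2 particles and the Sm ring, 2 of 28 of the tri-snRNP and Prp19 complex, 2 of 36 other RNA-binding regulators and 3 of 19 of the exon junction complex and nonsense-mediated decay, beside 15.7% of all tested genes. Voom was not counted over these lists. The medians of the log2 fold change in the LV were −0.11, −0.15, −0.08, −0.04 and −0.16. Of the 12 branch point and splice site factors, 11 were below 0 after VO in the LV and 11 were above 0 in sham LV over sham RV, comparisons that share the sham LV libraries. Rbm17 had the smallest p of that list in the LV, at −0.21 (adjusted p = 0.181), and Snrnp70, the U1 protein that SR proteins contact, was at −0.54 (adjusted p = 0.162).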
